A study of Mus musculus with 360 samples.

Results

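C1498 is a mouse line labelled as acute myeloid leukemia, and the cells described here were single C1498 cells collected 15 h after a short heat exposure or a control exposure. They were taken by their sample titles, which gave 21 cells heated at 45 °C for 10 min and 11 control cells handled in the same way at 37 °C, of 360 cells in the whole series. Every cell was a GEO sample of its own, followed by time-lapse imaging and picked with the automated system ALPS, and the series also held cells of both temperatures at -1, 1, 5 and 10 h, where -1 h lies before the exposure. The readout was the number of RNA molecules per gene and cell, counted by molecular barcodes (UMIs). No label named a culture or a day, so each group was read as 1 sample. No p-value could be formed, and the 95% intervals given below speak for counting error alone and leave out the spread between cells and between cultures.

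Heat unfolds proteins, and cells answer through the heat shock factor HSF1, which binds short repeats of GAA and TTC in promoters and drives genes of molecular chaperones. Chaperones of the HSP70, HSP40, HSP90 and HSP60 families fold or hold client proteins, and the response ends when free chaperones bind HSF1 again. Severe heat also interrupts translation, splicing, the cell cycle and the actin cytoskeleton, which recover over hours. The 15 h comparison addresses which of these changes were still visible late after the exposure, in which genes and in how many cells.

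The heated cells held 670464 UMIs together and the control cells 445109. Per cell, the heated cells ranged between 5994 and 73362 UMIs with a median of 31037, and the control cells between 7759 and 91095 with a median of 34720. The median cell had a UMI for 5814 genes in the heated group and for 5728 in the control group. The heated cells included 4 under 10000 UMIs, and the control cells 1. In 2 of the 4, heated cells 1 and 14, the precursor of ribosomal RNA, Rn45s, made up 88.3% and 83.4% of the UMIs, and 468 and 690 genes were detected. Over the other cells that share was far smaller, with a median of 12.8% over all heated cells against 11.1% over the control cells. Ranges over single cells include these shallow cells unless stated otherwise, and where a gene's ratio crossed 2-fold without them, both values are given.

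**Figure D1:**
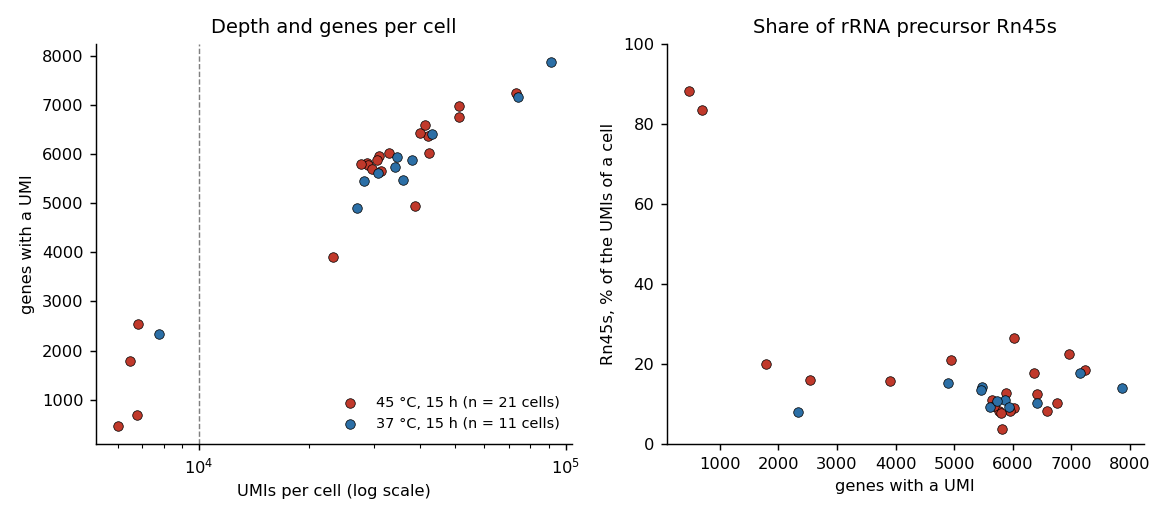
Left, number of genes with a UMI against UMIs per cell (log axis), with a dashed line at 10000 UMIs. Right, share of a cell's UMIs from Rn45s against its number of genes. Each point is 1 cell of the 21 heated cells (red) or of the 11 control cells (blue); 4 heated cells and 1 control cell lie left of the line, and the 2 heated cells with the fewest genes have Rn45s shares over 80%.

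The line label was set against marker genes. Of 7 general leukocyte markers 6 were detected in both groups, among them Ptprc, which encodes CD45, at 464 CPM in heated and 512 CPM in control cells (CPM is the summed UMIs of a gene per 1000000 summed UMIs of the group). Of 14 myeloid markers, Fcgr3, an Fc receptor gene, was detected in both groups, at 58.9 CPM in heated and 80.9 CPM in control cells, and Cd68 had 2 UMIs in the heated cells; the others, including Mpo, Elane, Lyz2, Spi1, Csf1r and Kit, were at 0 in both. Of 9 T or NKT cell markers 5 were detected in each group. Cd3e and Cd3g, genes of the T cell receptor complex, held most of their UMIs, while Cd3d, Cd2, Cd247 and Lck had 8 UMIs or fewer in either group, and Cd4, Cd8a and Thy1 were at 0 in both. The libraries thus carried general leukocyte RNAs and some T-lineage RNAs but not the defining myeloid ones. Of 8 NK cell markers, Klrd1 stood at 43.3 CPM (29 UMIs in 9 cells) in heated and 2.25 CPM (1 UMI) in control cells, while Klrb1c, Ncr1, Gzmb and Prf1 were at 0 in both. The summed B cell, erythroid and fibroblast or epithelial lists reached at most 4.47 CPM in heated and 4.49 CPM in control cells.

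Most measured RNAs were within 2-fold of control at 15 h. Of 6340 genes that could be measured, 256 (4.04%) were at least 2-fold higher and 140 (2.21%) at least 2-fold lower in the heated cells. A gene counted as measured with at least 20 UMIs over both groups and 10 CPM in either. The median log2 ratio of heated over control was -0.02, and the middle 90% of genes spanned 1.73 log2 units. Many of these ratios rest on few molecules: among the 812 genes with at least 200 UMIs, 4 were 2-fold higher and 4 were 2-fold lower. Of these 812 genes 34.98% were higher in heated cells, with a median of -0.108, so abundant genes leaned lower. Shares of all genes given below are over the 6340 measured genes, most of them less abundant. When every cell weighed the same, in place of every UMI, the counts were 303 higher and 361 lower, and the median of all genes stood at -0.12. Without the shallow cells 289 genes (4.60%) were 2-fold higher and 2.18% lower. Against all 6 groups of unheated cells (51 cells), 1000 genes (15.8%) stood above and 841 (13.3%) below every unheated group.

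The HSP90 genes and several HSP70 and HSP40 helpers were still above control, while the list as a whole was near it and the inducible HSP70 genes were at or near 0. Of 45 listed genes of the heat shock response 34 were measured, with 19 higher and 15 lower in heated cells, where 48.3% of all measured genes were higher. Their median log2 ratio was 0.07 and that of all genes -0.02. With every cell weighed the same, the list's median was -0.08, and without control cell 9 it was -0.01. Hsp90aa1 was the member at least 2-fold higher, and Hsf1 and Hsf2, both genes of heat shock factors, were at least 2-fold lower, though Hsf2 stood at -0.97 without the shallow cells.

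Hsp90aa1, the gene of the inducible cytosolic HSP90 (chr12:110690605-110702728, GRCm38, minus strand), ranged between 739 and 25363 CPM in single heated cells with a median of 3391, and between 1298 and 2481 CPM with a median of 1550 in control cells. Summed over cells it stood at 3769 CPM in heated and 1695 CPM in control cells, a log2 ratio of 1.15 (95% interval 1.04 to 1.27). The groups overlapped, but 14 of 21 heated cells lay above the highest control cell. The top of that range came from shallow cells 4 and 12, with 25363 and 9997 CPM, and from cell 15, with 15325 CPM. The lowest heated cell was shallow cell 14, rich in Rn45s. Over a total without Rn45s it had 4460 CPM, against at most 2930 CPM in control cells, but this value rests on 5 UMIs. Heated cells above 10000 UMIs ranged between 1390 and 15325 CPM. Without cell 15 the ratio was 0.98, just under 2-fold, and without the shallow cells it was 1.06. All 6 unheated groups stood between 1265 and 1695 CPM, so the heated cells were above every one of them. A share of 45.2% of the Hsp90aa1 UMIs came from values that were not whole numbers, so reads shared with other genes, such as HSP90 copies, may have been split among them.

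Hsp90ab1, the constitutive HSP90 gene, had a lowest, median and highest heated cell of 591, 7138 and 30697 CPM, against 3608, 5164 and 7262 CPM in control cells. Its log2 ratio was 0.46 (0.39 to 0.53), and in 79.2% of all pairs of a heated and a control cell the heated one was higher. Both ends of the heated range were shallow cells, and the other heated cells lay between 5144 and 13690 CPM. For St13, which encodes a cochaperone that links HSP70 and HSP90, single heated cells ranged between 0 and 1077 CPM with a median of 191.1, and control cells between 58.3 and 157.7 CPM with a median of 111.4. The log2 ratio was 0.93 (0.47 to 1.44) and the heated cell was higher in 87.9% of pairs, with 15 of 21 heated cells above the highest control cell. The highest heated cell was shallow cell 4, and heated cells above 10000 UMIs ranged between 96.9 and 371 CPM, with the heated cell higher in 91.8% of pairs. St13 thus had a smaller ratio than Hsp90aa1 and a similar overlap of the groups.

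Hsph1, the gene of the HSP110 exchange factor of HSP70, ranged between 0 and 1385 CPM in heated cells with a median of 342, and between 111.4 and 634 CPM in control cells with a median of 258. Its log2 ratio was 0.83 (0.53 to 1.15), with the heated cell higher in 61.9% of pairs. Without the shallow cells the heated range was 189.3 to 1181 CPM, and the heated cell was higher in 70% of pairs. The medians were thus closer than the sums: 7 heated cells lay above the highest control cell, while the rest overlapped with the controls. Dnajb1, an HSP40 gene that delivers clients to HSP70, stood at 86.9 CPM in heated and 44.9 CPM in control cells, a log2 ratio of 0.93 (0.19 to 1.76) from 58.3 UMIs in heated and 20 in control cells. The HSP40 gene Dnajb6 had a ratio of 0.66 (0.16 to 1.21). For the mitochondrial chaperonin pair, Hspe1 stood at 0.33 (0.18 to 0.47) and Hspd1 at 0.20 (0.07 to 0.34).

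**Figure D2:**
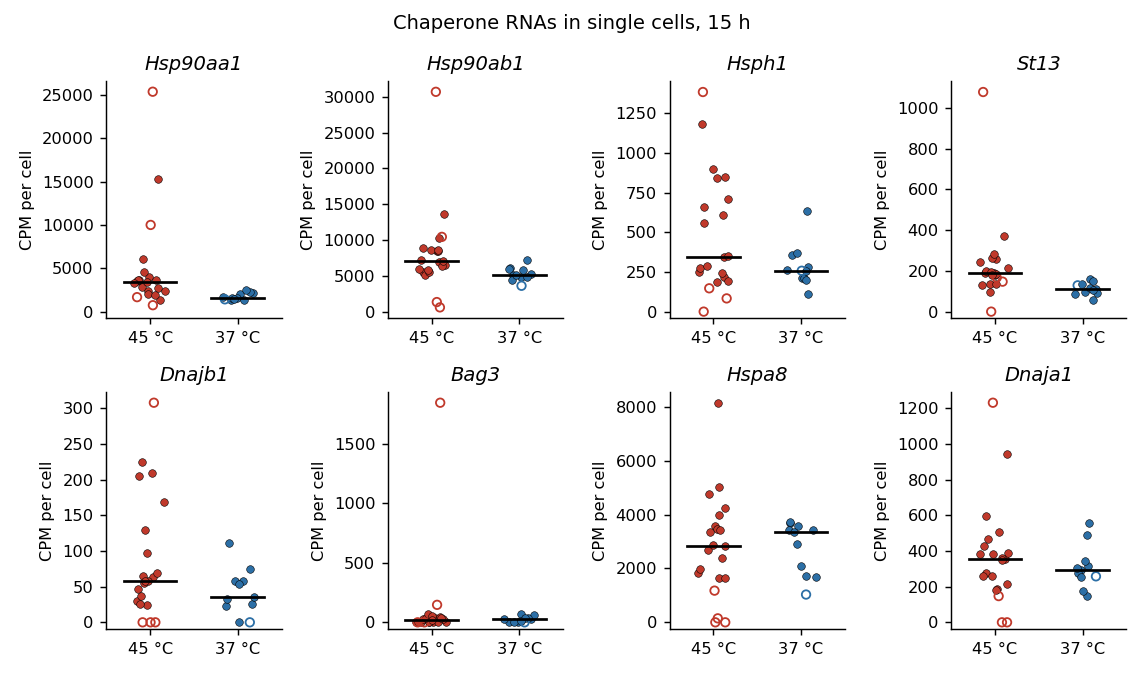
Level of 8 chaperone and cochaperone RNAs in CPM of each single cell at 15 h, heated cells (45 °C, n = 21, red) left and control cells (37 °C, n = 11, blue) right; bars are medians and open circles are cells under 10000 UMIs. Hsp90aa1 and St13 have 14 and 15 heated cells above the highest control cell, Hspa8 has 5 heated cells above the highest and 3 below the lowest control cell, and the single high Bag3 point is a shallow cell.

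Other members lay at or under control. Hspa8, the constitutive HSP70 gene, had 3120 CPM in heated and 2961 CPM in control cells, a ratio of 0.08 with an interval across 0 (-0.02 to 0.18). Of its heated cells 5 lay above the highest control cell and 3, all shallow, below the lowest. Bag3, a HSP70 cochaperone gene strongly induced by heat, had a ratio of 0.44 over all cells and of -0.56 without the shallow cells, since 48% of its 25 heated UMIs came from cell 4. Hspa1a, an inducible HSP70 gene, had 1 UMI in the heated and 0 in the control cells, both under the floor of 3 UMIs. Hsf1 stood at 25.4 CPM in heated and 62.9 CPM in control cells, a ratio of -1.29 (-2.27 to -0.39) from 17 UMIs in heated and 28 in control cells. The control of 15 h was the highest unheated group for Hsf1, and against the heated arm before heating the ratio was -0.31. All 14 members of the cytosolic chaperonin and prefoldin list, which fold actin and tubulin, were lower in the heated cells, where 51.7% of all genes were lower. Their ratios were small, with a median of -0.15, and 2 of the 14 were higher without the shallow cells. The median of the genes with at least 200 UMIs was -0.108.

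Variance over mean between single cells was larger in heated than in control cells for the HSP90 genes, as for some genes outside the list. Each cell was thinned to 5000 UMIs, and variance over mean (the Fano factor, near 1 for counting noise alone) was computed over the cells above 10000 UMIs. Hsp90aa1 had a Fano factor of 10.8 over the heated cells and 1.65 over the control cells, Hsp90ab1 4.82 over heated and 1.01 over control cells, and Dnaja1, an HSP40 gene, 4.31 over heated and 1.30 over control cells. Single cells held much of this: the heated value was 2.81 for Hsp90aa1 without cell 15, 3.30 for Hsp90ab1 without cell 7 and 1.54 for Dnaja1 without cell 17, each the cell whose removal lowered it most. Among other genes, Rack1, a ribosome scaffold gene, had 4.89 over heated and 1.80 over control cells (2.07 without heated cell 15), and Tmsb4x, a thymosin gene, 4.80 over heated and 1.03 over control cells (2.92 without heated cell 3). Over 1414 genes with enough UMIs the median was 1.07 in heated and 0.968 in control cells. At equal relative spread the Fano factor rises with the mean. With the shallow cells included, the mean thinned count of Hsp90aa1 was 23.9 in heated and 8.27 in control cells. That of Hsp90ab1 was 38.5 in heated and 24.1 in control cells. How much of the larger factor went with the higher level was not tested. In chaperone RNA summed over the list, cell 15 had 46335 CPM and cell 17 had 29041 CPM, where the control cells above 10000 UMIs ranged between 14847 and 19980 CPM. Among these deeper cells the heated one had the higher sum in 88.2% of pairs. This sum weighs abundant genes most. Over all cells the list summed to 22792 CPM in heated and 17620 CPM in control cells. Hsp90ab1 held 7645 CPM of it in heated and 5564 CPM in control cells. Hsp90aa1 held 3769 CPM in heated and 1695 CPM in control cells. By gene, the list's median log2 ratio was 0.07, with 19 members higher and 15 lower.

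At 15 h some chaperone RNAs were closer to control than at 5 h, in other cells of the same arm. In time order, Hsp90aa1 stood at 1517, 1582, 5202, 4219 and 3769 CPM in the 45 °C arm, and at 1375, 1265, 1620, 1495 and 1695 CPM in the 37 °C arm. Hsph1 stood at 156.3, 266, 1838, 1409 and 485 CPM in the 45 °C arm and at 226, 164.3, 365, 300 and 272 CPM in the 37 °C arm. The 15 h level of Hsph1 was thus far under that of 5 h, and that of Hsp90aa1 less so. St13 went another way, at 5 h with 200.1 CPM in heated and 106.7 CPM in control cells, and at 15 h with 211.05 CPM in heated and 110.1 CPM in control cells. The median ratio of the chaperone list over the matched controls was -0.05, 0.14, 0.38, 0.25 and 0.07 at the 5 times. The medians of all measured genes at those times were 0.01, -0.14, -0.23, 0.003 and -0.02. Between 32 and 39 members of the list were measured at a time.

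Stretches upstream of chaperone genes are shown because they carry repeats of the kind to which HSF1 is known to bind. They end 1 base before an annotated start site and come from RefSeq (GRCm38.p6), and capitals mark GAANNTTC or TTCNNGAA, which are a pair of facing units on either strand. The Hsph1 stretch is chr5:149636337-149636456 on the minus strand, the Dnajb6 stretch chr5:29735778-29735897 on the plus strand, and the Hspe1 stretch chr1:55088028-55088147 on the plus strand.
Hsph1: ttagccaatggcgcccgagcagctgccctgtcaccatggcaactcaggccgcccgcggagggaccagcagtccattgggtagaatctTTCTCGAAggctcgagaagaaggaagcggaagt
Dnajb6: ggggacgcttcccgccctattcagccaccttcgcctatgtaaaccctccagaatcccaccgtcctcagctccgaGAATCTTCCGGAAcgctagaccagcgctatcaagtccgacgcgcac
Hspe1: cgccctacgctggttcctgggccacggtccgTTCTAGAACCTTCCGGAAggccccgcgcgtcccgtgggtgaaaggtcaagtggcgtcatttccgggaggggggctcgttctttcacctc
In Dnajb6 and Hspe1 neighbouring matches overlap, giving a longer run of units than in Hsph1.
Of 28 measured chaperone genes with such a window of 250 bases, 8 (28.6%) held a pair of units, against 11.7% of 5088 measured genes. Hsp90aa1, Hsp90ab1, Hspa8 and St13 had no window and are not among the 28. A run of 3 units, GAANNTTCNNGAA or TTCNNGAANNTTC, was found in 3 of them (10.7%), against 0.590% of measured genes. Hspd1 and Hspe1 face away from 1 shared stretch of DNA and hold the same matches, so the 8 genes stand for 7 stretches, and both are among the 3 genes with the longer run. Members with a pair had a median log2 ratio of 0.26 at 15 h, with 5 of 8 higher, and members without one -0.02, with 9 of 20 higher. The 3 stretches shown are all of higher genes. Fkbp4, Cdc37 and Stub1 held a pair and were lower, at -0.37, -0.16 and -0.06, while Dnajb1 and Bag3 held none. A match is a description of the letters.

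A set of genes, most of them outside the chaperones, stood above control by a ranking rule. The 11 named were chosen by a rule: at least 50 CPM and a UMI in at least 50% of the cells of the higher group, a level outside all unheated groups, and a direction kept with any cell left out, ranked by the interval bound nearest 0. Besides Hsp90aa1 they were Fam46a, Fam129a, Il4ra, Ssfa2, Me1, Vps37b, Dusp6, Wdr60, Ccr2 and Cd28. Their log2 ratios ranged between 1.15 and 2.41, and 405 genes met the rule before the ranking. These ratios are over the 15 h control. That control was the highest unheated group for Hsp90aa1, Fam46a, Me1 and Ccr2, but not for the others named. Fam129a, at 2.41, had 70.8 CPM in heated cells and 12.4 CPM in the 15 h control, from 5.5 UMIs. It had 68.2 CPM in the 37 °C arm at 1 h. Ssfa2 had 65.6 CPM in heated cells, 15.7 CPM in the 15 h control and 63.5 CPM in the 37 °C arm at 10 h.

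Fam46a, the gene of a noncanonical poly(A) polymerase, ranged between 0 and 946 CPM in heated cells with a median of 69.7, and between 0 and 162.3 CPM in control cells with a median of 0. It stood at 183.5 CPM in heated and 38.2 CPM in control cells, a log2 ratio of 2.23 (1.53 to 3.09), and 39% of its heated UMIs came from cell 7. Without that cell the ratio was 1.63. Me1, which encodes malic enzyme, a source of NADPH, had a median of 47.3 CPM in heated and 0 CPM in control cells and a ratio of 2.01 (0.86 to 3.64). Its highest heated cell had 225 CPM and its highest control cell 52.6 CPM, and 9 of 21 heated cells lay above that. Vps37b, a subunit gene of the ESCRT-I complex that sorts membrane proteins for degradation, had the heated cell higher in 78.8% of pairs. Heated cells ranged between 0 and 882 CPM with a median of 169.5, where the highest was a shallow cell and the next had 517 CPM, and control cells between 0 and 144.01 CPM with a median of 83.5. Its ratio was 1.34 (0.79 to 1.95).

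Genes of lymphocyte surface receptors were among the 11. Cd28, the costimulatory receptor of T cells, ranged between 0 and 365 CPM in heated cells with a median of 82.8, and between 0 and 142.03 CPM in control cells with a median of 23.2, a log2 ratio of 1.31 (0.67 to 2.05). Il4ra, the interleukin 4 receptor gene, stood at 98.4 CPM in heated and 28.1 CPM in control cells, a ratio of 1.76 (0.97 to 2.89), and against the heated arm before heating at 0.67. Ccr2, a chemokine receptor gene, stood at 77.6 CPM in heated and 24.7 CPM in control cells, a ratio of 1.60 (0.69 to 2.74), and 30.8% of its heated UMIs came from cell 7. Of its 11 control UMIs 54.5% came from control cell 2, and the ratio was 1.19 without heated cell 7 and 2.56 without control cell 2. In the heated cells of 5 and 10 h Ccr2 stood at 1.76 and 15.3 CPM. The T-lineage list was split: of 20 measured, 10 were higher and 10 lower in heated cells, with a median of -0.05. Cd3g was at the low end, with 111.9 CPM in heated and 243 CPM in control cells and a ratio of -1.11 (-1.56 to -0.68). Cd3e, whose product pairs with that of Cd3g, had a ratio of -0.21 with an interval across 0 (-0.59 to 0.20).

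Dusp6, a phosphatase gene induced by ERK signalling, ranged between 0 and 801 CPM in heated cells with a median of 266, and between 0 and 362 CPM in control cells with a median of 87.8. The log2 ratio was 1.17 (0.77 to 1.60). Dusp6 was 1 of 13 measured immediate early genes, of which 8 were higher in heated cells and 3 at least 2-fold. Of all genes 48.3% were higher and 4.04% at least 2-fold. The others at 2-fold were Zfp36l2 and Zfp36, both genes of proteins that promote decay of AU-rich mRNAs, at 1.04 (0.50 to 1.70) and 1.08 (-0.32 to 2.97, and 0.74 without the shallow cells), the second from 17 UMIs in heated and 5 in control cells. The related gene Zfp36l1 went the other way, with ratios between -0.945 and -0.529 with 1 cell left out. The median of the list was 0.45, but against the heated arm before heating it was -0.36.

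Autophagy and lysosome genes leaned the same way, with 15 of 20 higher in heated cells, where 48.3% of all genes were, and a median of 0.26. None reached 2-fold. Sqstm1, the gene of the p62 receptor that carries ubiquitinated cargo to autophagosomes, stood at 130.5 CPM in heated and 69.6 CPM in control cells, a log2 ratio of 0.89 (0.31 to 1.55) and of 1.12 without the shallow cells, yet the heated cell was higher in 53.2% of pairs only, and in 68.8% without the shallow cells. Map1lc3b, the LC3B gene of the autophagosome membrane, had a ratio of 0.68 (0.17 to 1.23) with the heated cell higher in 72.7% of pairs. With every cell weighed the same, the median of the list was -0.06. The nuclear noncoding RNA Neat1, the scaffold of paraspeckles, had a median of 86.1 CPM in heated and 29.2 CPM in control cells and a ratio of 1.25 (0.61 to 2.06). Control cell 9 held 51.1% of its control UMIs, and without it the ratio was 1.92. Malat1, a nuclear speckle RNA, had a ratio of 0.53 (0.32 to 0.74).

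**Figure D3:**
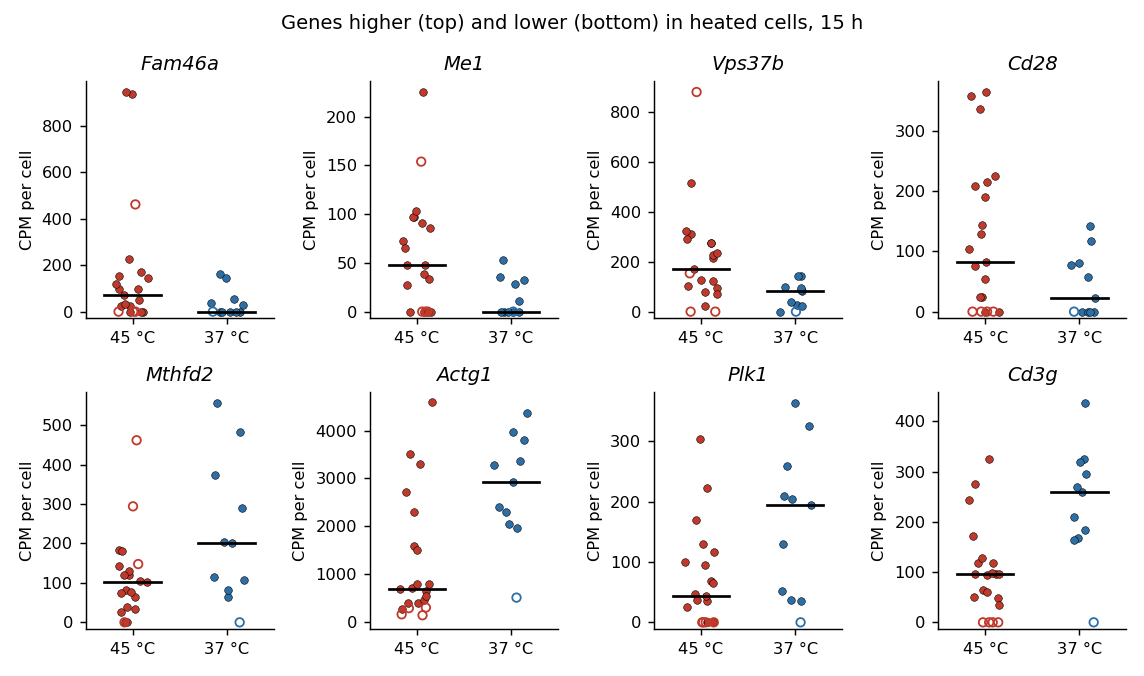
Level in CPM of each single cell at 15 h for 4 genes higher (top row) and 4 genes lower (bottom row) in heated cells, heated (45 °C, n = 21, red) left and control (37 °C, n = 11, blue) right; bars are medians and open circles are cells under 10000 UMIs. The medians of Fam46a and Me1 are 0 in control cells, and the median of Actg1 is 693 CPM in heated and 2922 CPM in control cells.

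On the lower side, the 12 named genes were U2af1l4, Mthfd2, Actg1, Hist1h2ao, Tmem39a, Sh3bp1, Ubald1, Plk1, Hist1h2ap, Nfya, Mrps28 and Srm, of 526 that met the rule. Their log2 ratios ranged between -2.24 and -1.03. The strongest ratios rest on few molecules: U2af1l4, related to the splicing factor U2AF1, had 7 UMIs in heated and 23 in control cells. It stood at 10.4 CPM in heated and 51.7 CPM in control cells, and the other unheated groups lay between 23.1 and 30.3 CPM. Ubald1 separated the cells most among them, at 23.8 CPM in the median heated and 94.3 CPM in the median control cell, with the heated cell higher in 9.09% of pairs and 15 of 21 heated cells below the lowest control cell.

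Genes of serine and one-carbon metabolism and of the ATF4 response were mostly lower. ATF4 is the transcription factor of the integrated stress response and drives amino acid synthesis and transport. Of 28 listed genes 17 were measured, 15 of them lower in heated cells, where 51.7% of all genes were, with a median log2 ratio of -0.38. Mthfd2, the mitochondrial folate enzyme (chr6:83305691-83325908, GRCm38, minus strand), ranged between 0 and 462 CPM in heated cells with a median of 101.2, and between 0 and 557 CPM in control cells with a median of 201.6. Its ratio was -1.39 (-1.87 to -0.93). The highest heated cell was shallow, and heated cells above 10000 UMIs reached 182.5 CPM. Atf4 itself ranged between 0 and 735 CPM in heated cells with a median of 243, and between 204.1 and 1289 CPM in control cells with a median of 422, a ratio of -0.79 (-1.08 to -0.49). Both maxima were shallow cells, and the deeper heated cells ranged between 47.3 and 646 CPM. Phgdh, the first enzyme of serine synthesis, and Shmt2, which passes the serine carbon to folate, had ratios of -0.82 (-1.09 to -0.54) and -0.86 (-1.25 to -0.47).

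The ATF4 list stood under every unheated group for 13 of its 17 members, where 13.3% of all genes did. The 15 h control was itself the lowest unheated group for 10 of the 17, and against all unheated cells pooled the median was -0.94. At 5 and 10 h the list had stood above the matched controls, with medians of 0.30 and 0.17. Those of all measured genes were -0.23 and 0.003. Asns, the asparagine synthetase gene and a classic ATF4 target, stood at 183.2 CPM in heated and 188.7 CPM in control cells, a ratio of -0.05 (-0.45 to 0.38), and every other unheated group was higher than that control, up to 542 CPM.

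Chaperones of the endoplasmic reticulum lay lower too, with 16 of 21 measured genes lower in heated cells and a median of -0.17. Of all genes 51.7% were lower. Hspa5, the gene of BiP, the main HSP70 of that compartment, had a median of 321 CPM in heated and 639 CPM in control cells and a ratio of -0.67 (-0.92 to -0.42). The shallow control cell 11 had 5155 CPM, and without the shallow cells the ratio was -0.42. Creld2 stood at -1.10 (-1.98 to -0.25), and at -0.97 without the shallow cells. None of the 21 stood above, and 10 stood below, all unheated groups, where 15.8% and 13.3% of all genes did.

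Actin RNAs were lower in most heated cells. Actg1, the cytoplasmic gamma actin gene (chr11:120345690-120348542, GRCm38, minus strand), ranged between 147.02 and 4587 CPM in heated cells with a median of 693, and between 516 and 4358 CPM in control cells with a median of 2922. The log2 ratio of the sums was -1.03 (-1.15 to -0.91), and the heated cell was higher in 18.6% of pairs. Cell 3 held 21.05% of the heated UMIs, and without it the ratio was -1.20. Actb, the beta actin gene, had a median of 5367 CPM in heated and 8999 CPM in control cells and a ratio of -0.47 (-0.53 to -0.41). Of its UMIs 81.9% came from values that were not whole, so actin copies may share reads. Coro1a, an actin regulator of leukocytes, had a ratio of -0.84 (-1.03 to -0.65), and Tmsb4x, the thymosin gene whose product holds free actin, -0.41 (-0.50 to -0.32). Over the list, 28 of 36 measured genes were lower, where 51.7% of all genes were, with a median of -0.33. Of the 36, 17 stood below all unheated groups, where 13.3% of all genes did. Exceptions included Myl12b, a myosin light chain gene, at 0.57.

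Nuclear genes of the respiratory chain showed a small shift shared by many members. Of 50 measured, 43 were lower in heated cells, where 51.7% of all genes were, none by 2-fold, with a median of -0.24. Their summed level ranged between 334 and 20583 CPM in heated cells with a median of 16031, and between 17264 and 26183 CPM in control cells with a median of 19401, and the heated cell was higher in 15.2% of pairs. Without the shallow cells 42 of 50 were lower, where 49% of all genes were, and the heated cell was higher in 20.6% of pairs. Within the list Cyc1, the cytochrome c1 gene, was the lowest at -0.82 (-1.23 to -0.43), and Atp5e, an ATP synthase subunit gene, the highest at 0.48 (0.15 to 0.84). Of the 50, 22 stood below all unheated groups, where 13.3% of all genes did. Cytosolic ribosomal protein genes stood near control, with 37 of 77 higher and a median of -0.01. Genes that build ribosomes lay slightly lower, with 27 of 39 lower and a median of -0.18, or 0.01 against the heated arm before heating. Among them Srm, the spermidine synthase gene, had a median of 153.9 CPM in heated and 346 CPM in control cells and a ratio of -1.05 (-1.40 to -0.69). Proteasome and ubiquitin genes had 30 of 36 lower and a median of -0.17, and glycolysis genes 18 of 22 lower and a median of -0.21. Of the 812 genes with at least 200 UMIs 34.98% were higher, with a median of -0.108. How much of these list shifts was that of abundant genes in general was not tested.

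**Figure D4:**
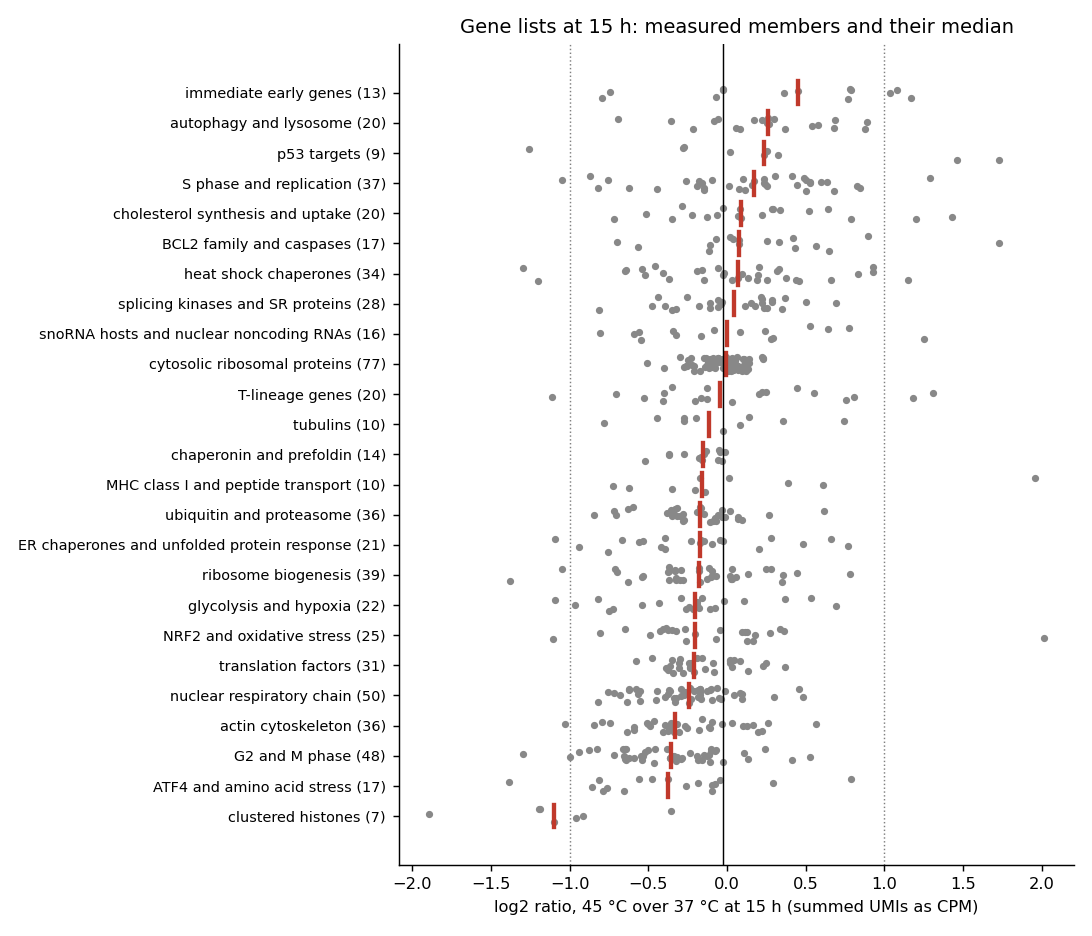
Log2 ratio of heated over control at 15 h for the measured members of each list with at least 5 (grey points, number in brackets), with the list's median in red; the solid line is the median of all 6340 genes and dotted lines mark 2-fold. Immediate early genes have the highest median, 0.45, and histone genes the lowest, -1.10.

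Genes of G2 and mitosis were mostly lower and replication genes were mixed. Of 48 measured genes of G2 and M phase, 43 were lower in heated cells, with a median log2 ratio of -0.36. Of all genes 51.7% were lower. Plk1, the mitotic kinase gene (chr7:122159439-122169873, GRCm38, plus strand), ranged between 0 and 304 CPM in heated cells with a median of 43.05, and between 0 and 364 CPM in control cells with a median of 194.9, a ratio of -1.30 (-1.80 to -0.80). Kif11, a spindle motor gene, stood at -0.94 (-1.50 to -0.39), Cenpe, a kinetochore motor gene, at -0.88 (-1.27 to -0.49) and Cdk1, the mitotic cyclin-dependent kinase gene, at -0.53 (-0.93 to -0.14). Smc4, a condensin gene, went the other way at 0.52 (0.14 to 0.92).

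The 2 arms already differed in these genes before the exposure. The median of the G2 and M list was -0.36, -0.35, -0.27, 0.07 and -0.36 over the matched controls in time order, starting 1 h before heating. Those of all measured genes were 0.01, -0.14, -0.23, 0.003 and -0.02. The 15 h control was the highest unheated group for 18 of the 48 genes, and against the 45 °C arm before heating the 15 h median was 0.07. The share of dividing cells in each picked group was not measured here, and its part in these ratios was not tested. Replication genes had 24 of 37 higher, where 48.3% of all genes were, and a median of 0.17. They lay between Tyms at -1.05 (-1.83 to -0.20) and Cdc6, a gene that licenses origins, at 1.29 (0.24 to 2.57). Against the heated arm before heating the median of the replication genes was -0.41.

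Stretches upstream of mitotic genes are shown for the CHR element, by which cell cycle complexes hold such genes down outside G2 and M phase. Capitals mark TTTGAA or TTCAAA, the same letters on either strand, and the stretches end 1 base before an annotated start site (RefSeq, GRCm38.p6). Kif11 is at chr19:37376262-37376381 on the plus strand, Ckap2 at chr8:22185820-22185939 on the minus strand, and Cdk1 at chr10:69352913-69353032 on the minus strand.
Kif11: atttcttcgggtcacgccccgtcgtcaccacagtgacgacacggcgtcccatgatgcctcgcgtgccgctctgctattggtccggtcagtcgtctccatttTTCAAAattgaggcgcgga
Ckap2: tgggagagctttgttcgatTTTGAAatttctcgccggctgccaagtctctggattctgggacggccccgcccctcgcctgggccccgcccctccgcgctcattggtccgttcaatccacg
Cdk1: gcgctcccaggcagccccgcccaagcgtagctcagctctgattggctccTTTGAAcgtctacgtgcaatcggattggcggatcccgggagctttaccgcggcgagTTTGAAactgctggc
Of 42 measured G2 and M genes with a window of 250 bases, 18 (42.9%) held the letters, against 12.8% of 5088 measured genes. Genes with a match had a median log2 ratio of -0.24, with 15 of 18 lower, and genes without one -0.37, with 23 of 24 lower.

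Histone genes stood lowest of all lists. Of 33 listed, 7 were measured, and all 7 were lower in heated cells, where 51.7% of all genes were, with a median log2 ratio of -1.10. Of the 7, 5 stood below all unheated groups, where 13.3% of all genes did. Hist1h2ao, a replication-dependent H2A gene, ranged between 1.17 and 1112 CPM in heated cells with a median of 107.6, and between 0 and 1127 CPM in control cells with a median of 788. Its ratio was -1.20 (-1.51 to -0.90), and without control cell 9 it was -1.51. All UMIs of Hist1h2ao and of Hist1h2ap came from values that were not whole, so these near-identical copies share reads and count as 1 observation rather than 2. Most transcripts of such genes lack a poly(A) tail, and the libraries were primed with a stretch of T. In the 45 °C arm Hist1h2ao stood at 1008, 258, 276, 230.2 and 224 CPM in time order. In the 37 °C arm it stood at 668, 386, 764, 795 and 515 CPM. The heated groups from 1 h on thus all lay under the matched controls.

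**Figure D5:**
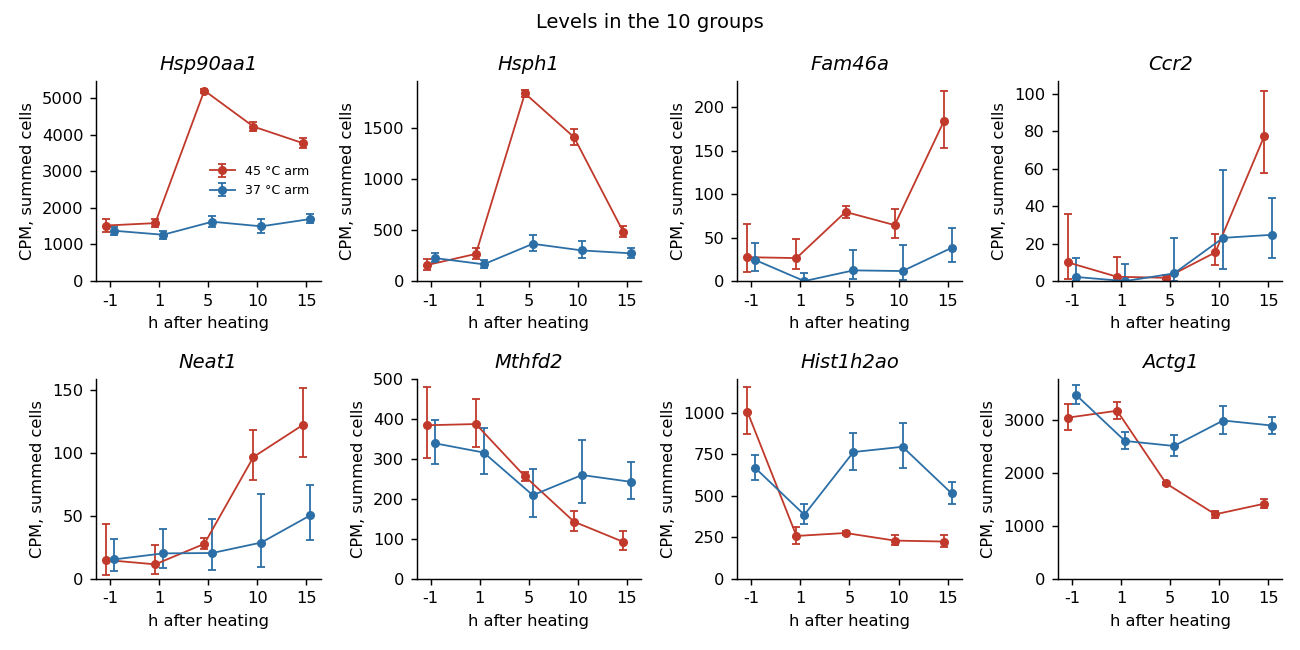
Summed level in CPM of 8 genes in the 10 groups, by hours from the end of heating, for the 45 °C arm (red) and the 37 °C arm (blue); bars are 95% intervals for counting error. At 15 h Hsph1 is closer to control than at 5 h, Fam46a, Ccr2 and Neat1 have their highest level of the 45 °C arm, and Mthfd2, Hist1h2ao and Actg1 lie under control.

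The cold-inducible RNA-binding protein gene Rbm3 ranged between 0 and 923 CPM in heated cells with a median of 387, and between 230 and 902 CPM in control cells with a median of 746. Its log2 ratio was -0.91 (-1.16 to -0.67), and the heated cell was higher in 11.7% of pairs. Of 3 listed cold-inducible genes 2 were measured, 1 higher and 1 lower in heated cells. Among p53 targets and BCL2 family genes few were far from control. Bbc3, the gene of the death promoter PUMA, had a ratio of 1.73 (0.12 to 4.33) from 17 UMIs in heated and 3 in control cells. Without control cell 11 it was 2.93. The p53 targets had 6 of 9 higher, where 48.3% of all genes were, and a median of 0.23. That median was -0.08 without heated cell 7 and -0.28 against the heated arm before heating. Oxidative stress genes were split between Me1 at 2.01 and Txnrd1, the thioredoxin reductase gene, at -1.10 (-1.54 to -0.67, and -0.92 without the shallow cells), with 10 of 25 higher.

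The sums of short RNAs made by RNA polymerase III turned on the shallow cells. Rn4.5s ranged between 25.03 and 158487 CPM in heated cells with a median of 169.5, and between 26.3 and 2759 CPM in control cells with a median of 408. The sums gave a log2 ratio of 1.94, with 68.8% of the heated UMIs from cell 4, and without the shallow cells the ratio was -0.17. Rpph1, the RNA of RNase P, had a ratio of 1.41 over all cells and of 0.12 without them, with 46.6% of its heated UMIs from cell 14.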

How the data were processed

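The 21 heated and 11 control cells of 15 h were taken by sample title. The deposited table held estimated counts of UMIs per gene and cell. Per the submitters' processing notes, STAR and mm10 were used. No source used here gives the counting program, annotation, strand setting or cell filter. In the 32 cells, 28.5% of UMIs lay in values that were not whole numbers (no tolerance).

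UMIs were summed per group and gene and scaled to CPM, and log2 ratios took 0.5 UMI added to each sum (numpy 2.4.6, pandas 2.3.3, scipy 1.17.1). Intervals are 95% exact conditional Clopper-Pearson intervals on sums rounded to whole numbers. They cover counting error only, since cells of 1 group are not replicates of it. The scripts were tested on simulated data. No cell was removed in the main values, and doublets were not called on these individually picked cells. No 2 of the 32 cells had identical values. Percent of pairs is the share of heated and control cell pairs in which the heated cell had the higher CPM, with ties split evenly. Of the ranked 12 per direction, 1 higher gene is not reported here. Other genes were named as the highest, lowest or most abundant of a list, or to show a role in it, and those of the last kind were chosen after their values were seen. Ranked genes also had medians per cell in the direction of the ratio, and predicted and ribosomal protein genes were left out of the ranking. The members, the 29 lists and the naming rule were chosen with earlier results of these data known. The plan assumed a count table, and the estimated counts were used in its place. Coordinates of genes are those of GENCODE M21 on GRCm38.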

Additional observations from a re-analysis of the deposited data

How the results depend on the processing

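No paired analysis was possible because the replicate numbers only name single cells, each group was 1 sample, and no result came from a test. Other settings were the normalization (TMM, median of ratios, total without the 10 top genes), the filter, the whole part of each value, equal weight per cell, other unheated groups as control, and each cell left out. After the data had been seen, leaving out cells under 10000 UMIs and leaving Rn45s out of the total were added, as was leaving 1 heated cell out of the Fano factor. The counts of 2-fold genes kept within 1.5 times in 14 of 22 cases under these settings (higher and lower counted apart) and in all 64 with 1 cell left out. As a share of the genes measured, 3.85% to 5.46% were 2-fold higher and 2.15% to 2.80% lower with 1 cell left out. By setting these shares were 10.7% higher (1166 genes) and 8.38% lower (916) with no filter, 0.493% each way (4 and 4) at 200 UMIs or more, 5.69% lower (361) with equal weight per cell, 2.82% lower against all unheated cells, and 7.98% higher (455) and 4.88% lower (278) against the 45 °C arm before heating. List medians stayed within the median counting interval of their members in 260 of 273 cases, where lists with a median near 0 could change sign. Exceptions with equal weight per cell were autophagy (-0.062) and ribosomal proteins (-0.16), with no filter tubulins (0.026), and against all unheated cells ATF4 (-0.94) and S phase (-0.044). Against the 45 °C arm before heating they were ER chaperones (-0.76), p53 targets (-0.28), immediate early genes (-0.36), S phase (-0.41), G2 and M phase (0.067), ribosome biogenesis (0.011), noncoding RNAs (0.73) and tubulins (0.022). The cause of these shifts was not tested. With 1 cell left out, the median of the chaperone list ranged between -0.01 and 0.12, that of snoRNA hosts and noncoding RNAs between -0.16 and 0.50, that of p53 targets between -0.080 and 0.33 (under 0 without heated cell 7, 18 or 20), that of oxidative stress genes between -0.32 and 0.029, and that of MHC class I genes between -0.23 and 0.0031 (both above 0 without control cell 9). Of the named genes at least 2-fold apart, Rn4.5s reversed without the shallow cells (-0.17). Depth limits the rest: a gene at 0 UMIs in a group may stand at up to 4.47 CPM in heated and 6.74 CPM in control cells.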

Other observations

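Gene lists not described above lay close to control in their medians, where 48.3% of all measured genes were higher. Of 20 measured cholesterol genes 12 were higher in heated cells, with a median log2 ratio of 0.09. Sc5d and Lss, which encode enzymes late in sterol synthesis, were at least 2-fold higher, at 1.43 (0.41 to 2.72) from 38 UMIs in heated and 9 in control cells and at 1.20 (-0.06 to 2.88) from 22 UMIs in heated and 6 in control cells. Splicing kinases and SR proteins were split, with 14 of 28 higher and a median of 0.04, and snoRNA host and nuclear noncoding RNAs with 8 of 16 higher and a median of -0.0018. That last median ranged between -0.16 (without control cell 10) and 0.50 (without control cell 9) with 1 cell left out, and the 15 h control was the highest unheated group for 11 of the 16. Translation factors had 10 of 31 higher and a median of -0.21, and tubulins 4 of 10 and -0.11. Of the genes with at least 200 UMIs 34.98% were higher, with a median of -0.108. MHC class I and peptide transport genes had 4 of 10 higher and a median of -0.16, and the exception at 2-fold was the peptide transporter gene Tap1 at 1.96 (0.39 to 4.54) from 20 UMIs in heated and 3 in control cells. BCL2 family and caspase genes had 12 of 17 higher and a median of 0.08. Of the interferon list 3 of 28 genes were measured, all higher, and of the NF-kB list 4 of 23, with 3 higher.

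The genes below fell outside the rule for named genes and were chosen after their values were seen. Cox7b, a subunit gene of cytochrome c oxidase that was not on the list of 50 respiratory chain genes, ranged between 0 and 414 CPM in heated cells with a median of 189.3, and between 329 and 1160 CPM in control cells with a median of 485. The heated cell was higher in 3.03% of pairs, and 18 of 21 heated cells lay below the lowest control cell. Its log2 ratio was -0.99 (-1.30 to -0.68), and the 6 unheated groups lay between 386 and 467 CPM.

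Lrrc17, which encodes a leucine-rich repeat protein, ranged between 0 and 8382 CPM in heated cells with a median of 1735, and between 0 and 2179 CPM in control cells with a median of 807. Its log2 ratio was 1.37 (1.23 to 1.52), but the 6 unheated groups spanned 1130 to 4193 CPM, with the 15 h control the lowest. The Fano factor of its thinned counts over the deeper cells was 16.8 in heated and 4.41 in control cells.

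Klrd1, a receptor gene of NK cells, had 34.5% of its 29 heated UMIs in cell 9, and its levels in unheated groups lay between 2.25 CPM at 15 h and 124.8 CPM in the 45 °C arm before heating. Cd24a, a surface glycoprotein gene, stood at 96.9 CPM in heated and 22.5 CPM in control cells, a log2 ratio of 2.05 (1.14 to 3.24), and the unheated groups spanned 5.77 to 144.7 CPM.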
